A study of Mus musculus with 7 samples.

Results

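Telomerase and the factors that finish telomere replication are encoded by the 10 mouse genes described here: Tert, Terc, Dkc1, Nop10, Nhp2, Gar1, Wrap53, Rtel1, Ctc1 and Ten1. They were taken by symbol from the GENCODE M21 annotation of the mm10 genome, where 9 of them are among the 21911 protein-coding genes examined and Terc is a non-coding RNA gene. Peaks of each deposited list that touched a gene or the 3 kb on either side of its start were assigned to it. The study profiled chromatin of mouse muscle stem cells (MuSCs), the Pax7-positive cells that rebuild skeletal muscle after injury, with regard to TRF2, a telomere-binding protein of the shelterin complex. ATAC-seq, in which the Tn5 transposase cuts accessible DNA, was done on MuSCs from hind limb muscle at the 0 h time point, with 2 Control libraries and 2 TRF2KO libraries. By the methods, TRF2KO mice carried a floxed TRF2 gene and Pax7CreERT2, a tamoxifen-inducible Cre recombinase driven by the Pax7 gene, on a C57BL/6 background. The genotype field of all 4 ATAC-seq libraries reads Wildtype, so the groups follow the library titles, and the age and sex of the mice are not given for these libraries. CUT&Tag, in which an antibody directs Tn5 to a chromatin protein, was done on wildtype MuSCs of the tibialis anterior muscle 3 days after notexin, a myotoxin, with 2 TRF2 libraries and 1 IgG library. The accessibility and TRF2 maps therefore come from cells of different isolations, one labelled 0 h and one taken 3 days after notexin. The IgG group has no replicate. Whether a library came from 1 animal or from pooled animals is not stated, so the spread given below is between libraries.

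Telomerase is a reverse transcriptase that adds telomeric repeats to chromosome ends. Tert is its catalytic protein and Terc the RNA that carries the template. Dyskerin, the product of Dkc1, binds Terc together with Nop10, Nhp2 and Gar1, which also make up the H/ACA ribonucleoproteins that modify ribosomal RNA in every cell. Wrap53 encodes TCAB1, which directs telomerase to Cajal bodies and telomeres. Rtel1 is a helicase that unwinds telomeric loops and G-quadruplexes, which are folded structures of guanine-rich DNA. Ctc1 and Ten1 are subunits of CST, the complex with Stn1 that ends telomerase extension and brings in DNA polymerase alpha to fill in the other strand.

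The promoters of 4 of these genes are shown first, because Tert had the weakest peak, Dkc1 and Ctc1 carried TRF2 peaks in both TRF2 libraries, and the Rtel1 TRF2 peak held a G-quadruplex pattern. Each is the 250 bases before the RefSeq gene start (GRCm38.p6, plus strand, intergenic in GENCODE), written 5′ to 3′. Tert lies at chr13:73626661-73626910, Dkc1 at chrX:75095604-75095853, Rtel1 at chr2:181319474-181319723 and Ctc1 at chr11:69015661-69015910. In Tert the capitals mark GC boxes, searched as GGGCGG on both strands, and in the others a G-quadruplex pattern, searched on both strands as 4 runs of at least 3 G with 1 to 12 bases between runs. Runs of C in capitals are runs of G on the opposite strand.
Tert: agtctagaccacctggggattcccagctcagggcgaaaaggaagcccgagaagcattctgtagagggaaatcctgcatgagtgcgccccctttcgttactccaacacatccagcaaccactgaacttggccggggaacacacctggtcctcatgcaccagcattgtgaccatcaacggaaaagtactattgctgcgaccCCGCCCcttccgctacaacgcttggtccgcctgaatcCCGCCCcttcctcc
Dkc1: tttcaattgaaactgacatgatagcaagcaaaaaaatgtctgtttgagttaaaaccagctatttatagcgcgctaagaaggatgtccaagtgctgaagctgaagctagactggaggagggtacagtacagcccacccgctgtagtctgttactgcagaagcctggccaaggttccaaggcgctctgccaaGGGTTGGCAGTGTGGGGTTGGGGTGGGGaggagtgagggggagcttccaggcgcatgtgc
Rtel1: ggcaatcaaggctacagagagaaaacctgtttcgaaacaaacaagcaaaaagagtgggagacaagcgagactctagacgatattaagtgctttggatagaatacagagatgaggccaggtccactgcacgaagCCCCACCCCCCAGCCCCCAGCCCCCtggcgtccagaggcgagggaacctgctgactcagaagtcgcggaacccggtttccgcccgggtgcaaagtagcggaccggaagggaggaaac
Ctc1: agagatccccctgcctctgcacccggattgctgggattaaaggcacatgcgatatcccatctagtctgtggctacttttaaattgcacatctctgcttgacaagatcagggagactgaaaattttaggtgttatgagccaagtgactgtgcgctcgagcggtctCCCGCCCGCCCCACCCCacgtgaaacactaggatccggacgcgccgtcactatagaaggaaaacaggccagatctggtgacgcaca

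The deposited lists held 84102 to 100521 MACS peaks in the 4 ATAC-seq libraries, 12290 and 15479 in the TRF2 libraries and 656 in the IgG library. The total reads per library are not used here. The fragments at a peak's summit were solved from its fold and p, and the 20 weakest peaks of each list had a median of 10 to 12 fragments in ATAC-seq and 4 to 5 in CUT&Tag, so a weaker signal was not detectable. Start peaks were present in all 4 ATAC-seq libraries at all 10 muscle stem cell marker genes examined. Of 15 marker genes of blood, endothelial, fibroblast, muscle fibre and Schwann cells, 10, 10, 8 and 11 had a start peak in Control 1, Control 2, TRF2KO 1 and TRF2KO 2, and Ptprc, Itgam and Cd3e had none in any. Cd68 had one in all 4, with ranks (defined in the next paragraph) of 46.4 and 53.2 in Control and 24.5 and 27.1 in TRF2KO. Ly6a had one in both TRF2KO libraries, at ranks of 13.8 and 5.22, and in neither Control. Cdh5 had one in Control 2 alone, at 19.8. Of the 7 markers of other cells present in all 4 libraries, 4 had lower ranks in both TRF2KO libraries, with a median difference of -4.08 points. Of the 10 muscle stem cell markers 5 did so, 5 overlapped and none had the reverse, with a median of -0.93. The largest fall was at Itga7, with ranks of 93.7 and 95.1 in Control and 83.6 and 83.3 in TRF2KO. Pax7 followed with a difference of -2.00. Over coding genes 28.4% had lower ranks in both TRF2KO libraries and 9.60% had the reverse, with a median difference of -0.26. The part of other cells in the results below was not tested.

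The 5′ ends of nearly all of these genes were accessible. A start peak is the MACS peak nearest the annotated start within 3 kb, and its strength is given as a rank, the percentile of its fold over the local background among all peaks of its library, where 100 is the strongest. Of the 10 genes, 9 had a start peak in all 4 ATAC-seq libraries, against 64.4% of coding genes (14100 of 21911). Tert was the exception. The map of peaks shows the positions in the 7 libraries.

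**Figure D1:**
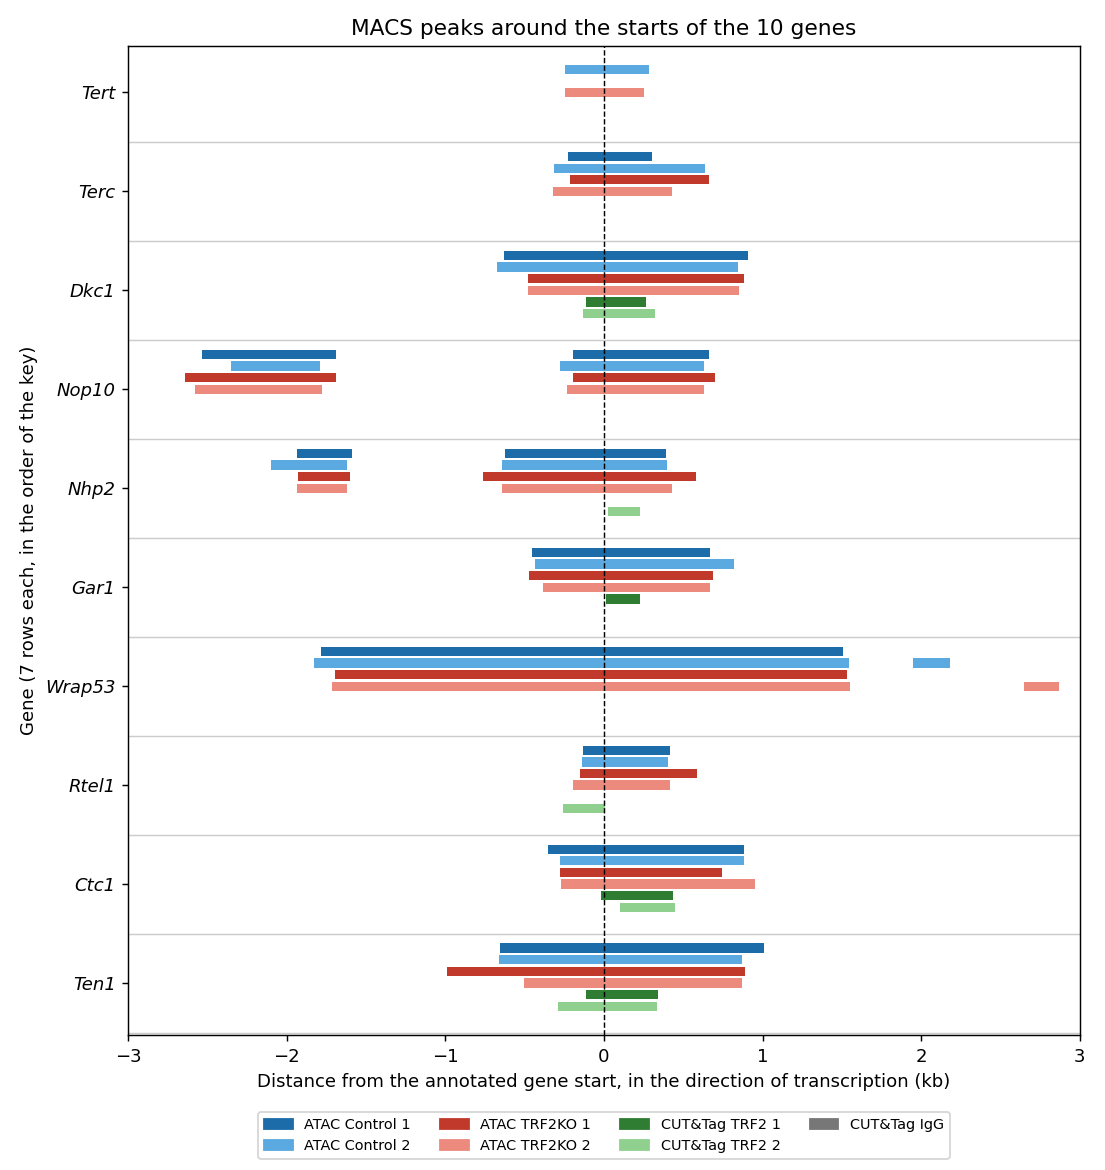
Bars are MACS peaks within 3 kb of each gene start (distance in kb along the direction of transcription), with 7 rows a gene for the 4 ATAC-seq, 2 TRF2 and 1 IgG libraries. ATAC-seq peaks covered 9 starts in all 4 libraries and the Tert start in 2, TRF2 peaks lay near 6 starts, and no IgG peak was present.

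Tert (ENSMUSG00000021611.9, chr13:73626911-73649843, plus strand), the catalytic subunit, had a peak over its start in Control 2 and TRF2KO 2 and none in Control 1 or TRF2KO 1. In Control 2 the fold was 5.04, from 27 fragments at the summit, and the rank was 38.6. In TRF2KO 2 the fold was 2.72, from 11 fragments, and the rank was 2.09. The TRF2KO 2 peak was thus at the size of the weakest peaks of its list, and presence did not follow genotype. Both peaks began 249 bp before the start, over the stretch printed above, and held both GC boxes. A start peak in 1 of 2 Control and 1 of 2 TRF2KO libraries was found for 227 coding genes (1.04%), and 6407 (29.2%) had none in any ATAC-seq library. No other MACS peak lay in the Tert gene in any of the 7 libraries, though GoPeaks called 2 regions there in Control 2, 1 of them at the start, and absence from a list does not show closed chromatin.

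Terc (ENSMUSG00000064796.1, chr3:96414437-96414859, minus strand), the template RNA, had the next lowest accessibility, and unlike Tert it was called in every ATAC-seq library. Its ranks were 59.5 and 67.2 in Control 1 and 2 and 64.3 and 65.4 in TRF2KO 1 and 2. The folds were 12.0, 11.9, 13.5 and 13.2 in the same order, from 51 to 65 fragments. The TRF2KO ranks fell between those of the Controls. Most of the 423 bp gene lay inside the peak, so its promoter and transcribed part cannot be told apart.

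Of the H/ACA genes, Dkc1, Nhp2 and Gar1 were among the most accessible. Dkc1 (ENSMUSG00000031403.14, chrX:75095854-75109777, plus strand) had ranks of 94.8 and 93.2 in Control and 93.7 and 93.3 in TRF2KO, with folds of 81.0, 56.5, 76.4 and 68.8. Fold moved with the library, whose median background was 3.35, 4.56, 3.37 and 3.41 fragments in the order Control 1, Control 2, TRF2KO 1 and TRF2KO 2, and the rank was used for this reason. Nhp2 (ENSMUSG00000001056.3, chr11:51619735-51623714, plus strand) had ranks of 94.7 and 95.3 in Control and 95.4 and 93.7 in TRF2KO. Gar1 (ENSMUSG00000028010.16, chr3:129824912-129831396, minus strand) followed with 91.1 and 93.2 in Control and 91.0 and 92.8 in TRF2KO. At each of these genes the genotypes overlapped. Nop10 (ENSMUSG00000027133.3, chr2:112261926-112263269, plus strand), the smallest of the H/ACA proteins, ranked lower, at 81.2 and 82.7 in Control and 80.6 and 83.7 in TRF2KO, from 127 to 145 fragments.

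Wrap53 (ENSMUSG00000041346.11, chr11:69561758-69580255, minus strand) had the highest mean rank of the 10, with 96.5 and 96.6 in Control and 96.3 and 96.7 in TRF2KO. Its peak was also the widest, at 3295 and 3375 bp in Control and 3233 and 3267 bp in TRF2KO, and the summit lay at the same base in all 4 libraries, 844 bp inside the gene and 87 bp from another annotated Wrap53 start. The start of Trp53, which encodes the tumour suppressor p53, lies 104 bp away on the opposite strand, so the peak cannot be given to Wrap53 alone.

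Rtel1 (ENSMUSG00000038685.18, chr2:181319739-181356616, plus strand) ranked with Nop10, at 80.7 and 80.2 in Control and 79.5 and 81.9 in TRF2KO, from 119 to 130 fragments. It is the only one of the 10 close to a telomere, 0.793 Mb from the end of chromosome 2 in the assembly, where the next nearest, Ten1, lies 5.88 Mb from an end. Of the CST genes, Ctc1 (ENSMUSG00000020898.18, chr11:69015911-69036473, plus strand) had ranks of 94.2 and 94.2 in Control and 93.4 and 92.8 in TRF2KO. Both of its TRF2KO values lay below both Control values. Ten1 (ENSMUSG00000020778.12, chr11:116198855-116215318, plus strand) had ranks of 96.1 and 96.0 in Control and 95.5 and 96.6 in TRF2KO. The genotypes overlapped there. The Ten1 start peak also covers the start of another gene, so it cannot be given to Ten1 alone.

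In order of mean rank over the 4 libraries the genes were Wrap53 (96.5), Ten1 (96.0), Nhp2 (94.8), Dkc1 (93.8), Ctc1 (93.7), Gar1 (92.0), Nop10 (82.1), Rtel1 (80.6) and Terc (64.1). The ranges of neighbours overlapped except between Ten1 and Nhp2, between Gar1 and Nop10 and between Rtel1 and Terc. The start peaks of all coding genes had median ranks of 86.6 to 88.0 in the 4 libraries, so 6 of the genes were above and 3 below that level. Tert, without a value in Control 1 and TRF2KO 1, was left out of this order.

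**Figure D2:**
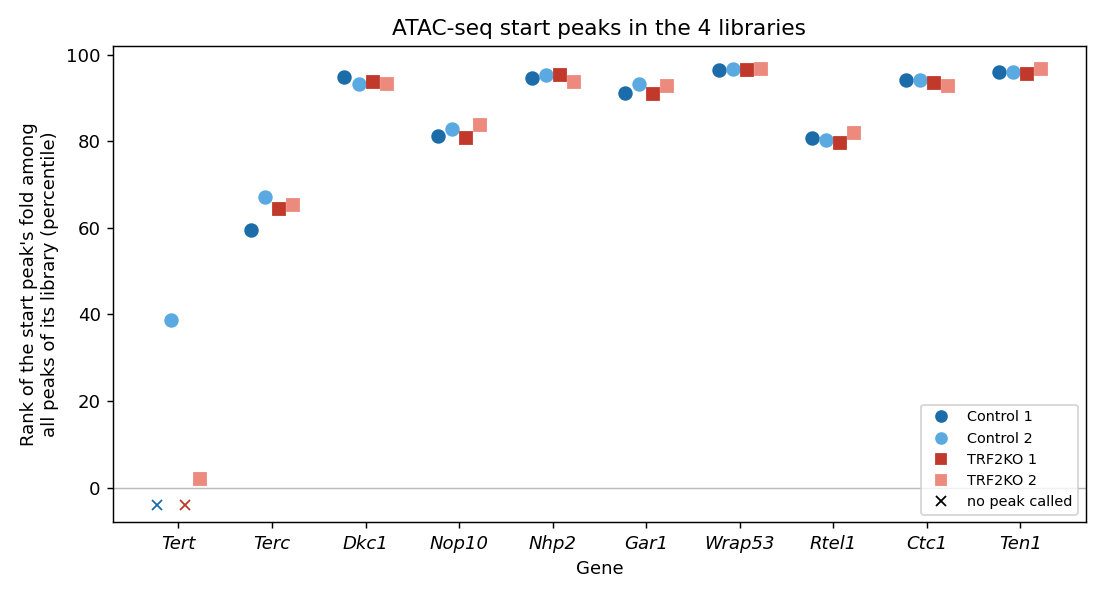
Points are the rank of each start peak's fold among all peaks of its library (percentile, 100 strongest) for Control (circles) and TRF2KO (squares), and crosses mark libraries with no peak. Tert had a peak in 2 libraries, Terc stood near 64.1, Nop10 and Rtel1 near 80 and the other 6 genes above 90.

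The comparison of TRF2KO with Control asks whether loss of TRF2 goes with a change of accessibility at genes that build and complete telomeres. At 8 of the 9 genes with values in all libraries the genotypes overlapped, and the differences of mean rank (TRF2KO minus Control) ran from -1.05 points at Ctc1 to 1.47 at Terc. Ctc1 was the only gene with both Control ranks above both TRF2KO ranks, and none had the reverse. Over all coding genes the shares were 28.4% with Control above and 9.60% with TRF2KO above. These shares depend on the scale, since with log2 folds centred on the median start peak they became 22.2% and 22.8%, and with ranks among start peaks alone 26.0% and 17.5%. With 2 libraries a group an exact two-sided permutation test over 6 assignments cannot go below p = 0.33, so no difference could pass 0.05.

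Most differences were smaller than the spread between libraries. Terc differed by 1.47 points (pooled SD 3.88, n = 2 and 2, exact permutation p = 1), Dkc1 by -0.50 (pooled SD 0.82, exact permutation p = 1) and Nhp2 by -0.43 (pooled SD 0.87, exact permutation p = 1). Gar1 differed by -0.23 (pooled SD 1.40, exact permutation p = 0.667), Nop10 by 0.21 (pooled SD 1.72) and Rtel1 by 0.21 (pooled SD 1.22), the last pair with an exact permutation p of 1. Wrap53 differed by -0.02 (pooled SD 0.18) and Ten1 by 0.05 (pooled SD 0.56), each with an exact permutation p of 1. With ranks among start peaks alone these differences became 0.77 and 1.23. Ctc1 differed by -1.05 points (pooled SD 0.30, exact permutation p = 0.33), which exceeded its spread, and its absolute difference stood at percentile 53.6 of those of all coding genes. With ranks among start peaks alone its difference was -2.91 and the groups still did not overlap. On the centred log2 scale its difference was -0.07 (pooled SD 0.08) and the groups overlapped. On that scale the 9 genes ran from -0.07 at Ctc1 to 0.08 at Ten1, with Wrap53 at 0.07, and each difference was smaller than its own pooled SD. Adjusted by Benjamini-Hochberg over the 9 tests, every p was 1.

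The median difference of the 9 genes was -0.02 points and their median absolute difference 0.23. For the 14100 coding genes with a start peak in all 4 libraries these values were -0.26 and 0.92. Within 1 point of 0 lay 7 of the 9. Of the 14100 coding genes, 4397 lay from -1 to 0 and 2967 from 0 to 1. On a scale that ends at 100, 6 of the 9 genes ranked above 90. In bulk libraries a weaker peak in every cell and an unchanged peak in fewer cells cannot be told apart.

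**Figure D3:**
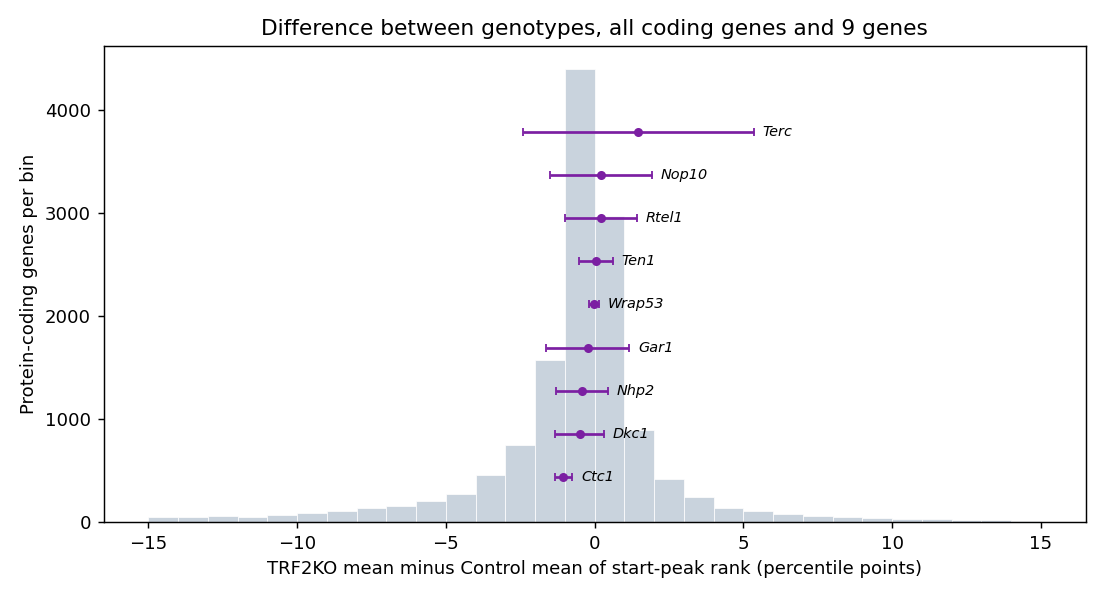
Bars count coding genes by the difference of mean start-peak rank, TRF2KO minus Control (percentile points, bins of 1 point, axis limited to 15 points either way), and purple points give the 9 genes with their pooled SD (n = 2 and 2). The 9 genes lay between -1.05 and 1.47, and only at Ctc1 did the groups not overlap.

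Peak widths gave no common direction either. Both Control widths exceeded both TRF2KO widths at 2 of the 9 genes, Dkc1 (1537 and 1521 against 1362 and 1328 bp) and Wrap53, where 27.6% of coding genes did so. The reverse held at 2 genes, Nhp2 (1018 and 1043 against 1347 and 1074 bp) and Rtel1 (549 and 544 against 736 and 612 bp), where 9.92% of coding genes did so. Neither count was tested.

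TRF2 CUT&Tag peaks lay at the starts of 6 of the 10 genes, beside 40.1% of coding genes in either library, and in both libraries at 3 of them. Dkc1 had the strongest, with folds of 9.47 and 10.8, which ranked at 94.8 and 96.5 among all TRF2 peaks of their libraries, from 15 and 16 fragments. Ctc1 had folds of 6.76 and 7.20 (ranks 75.3 and 77.3, 10 fragments in each). Ten1 had folds of 6.31 and 6.70 (ranks 67.3 and 70.7, 9 and 10 fragments). These peaks lay over the 5′ ends of the transcripts, from 131 bp before to 323 bp after the start at Dkc1 and from 288 bp before to 339 bp after it at Ten1. At Ctc1 they ran from 21 bp before to 447 bp after the start. Those at Ten1 also cover the start of another gene, so they cannot be given to Ten1 alone.

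At 3 more genes the peak was in one TRF2 list only. Rtel1 had a fold of 8.42 in TRF2 library 2 (rank 87.8, 11 fragments), from 257 bp before to 4 bp after the start. Nhp2 had 5.58 in library 2 (rank 49.1, 10 fragments), and Gar1 had 4.19 in library 1 (rank 12.5, 6 fragments). Gar1 was therefore close to the weakest peaks called, whereas the Rtel1 peak was stronger than those of Ctc1 and Ten1 and still absent from the other list. Such single calls were common, at 7.0% of coding genes in library 1 alone and 8.95% in library 2 alone. Tert, Terc, Nop10 and Wrap53 had no TRF2 peak within 3 kb of the start, and none of the 10 genes had an IgG peak.

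A TRF2 start peak in both libraries at 3 of 10 genes stood beside 24.1% of coding genes (5290 of 21911). The share depended on accessibility, at 7.13% of coding genes with a mean Control rank of 60 to 70, 26.0% at 80 to 90 and 64.7% at 90 or more (4049 of 6255). Of the 6 genes at 90 or more, 3 had it. Wrap53 was without one at a mean rank above 95, where 256 of 3710 coding genes with a mean Control rank of at least 95 (6.90%) had no TRF2 start peak in either list. Its absence covers the 3 kb around the Wrap53 start, which includes the start of Trp53. With 4 fragments as the size of the weakest TRF2 peaks, a lower occupancy was not detectable.

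**Figure D4:**
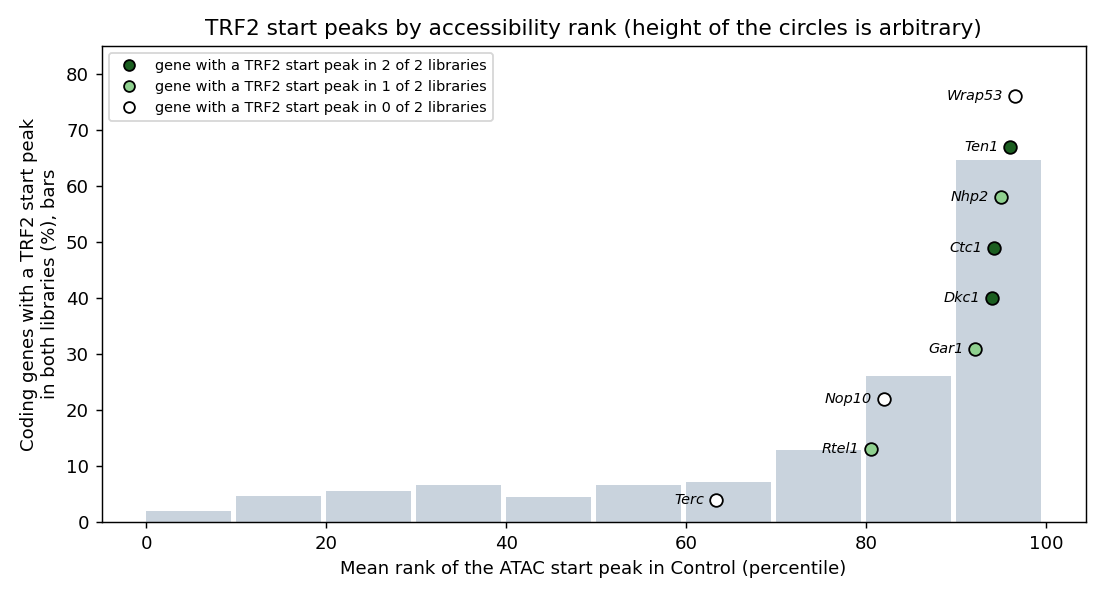
Bars give the share of coding genes (%) with a TRF2 start peak in both libraries, in bins of mean Control accessibility rank (percentile), and circles mark the 9 genes at their own rank, filled dark for 2, light for 1 and open for 0 TRF2 libraries (circle height carries no value). Bars rise from 7.13% at 60 to 70 to 64.7% at 90 to 100, where Wrap53 is open and Dkc1, Ctc1 and Ten1 are dark.

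TRF2 binds the telomeric repeat TTAGGG and has been studied at G-quadruplexes, so the peaks were searched for both. With 1 to 7 bases between runs, a G-quadruplex pattern lay in the TRF2 peaks of 0 of the 3 genes called in both libraries, beside 46.1% (2439 of 5290) of coding genes called in both. With up to 12 bases it was in 2 of them, Dkc1 and Ten1, beside 67.3% (3559 of 5290). The Dkc1 motif of 28 bases lay at chrX:75095794-75095821, 60 to 33 bp before the start, with G on the plus strand. The Ten1 motif lay 32 to 3 bp before the start. The Rtel1 motif of 25 bases, at chr2:181319607-181319631 and 132 to 108 bp before the start, satisfied the shorter limit with G on the minus strand, and it lay inside the peak of TRF2 library 2. It was the only 1 of the 6 genes called in either library with the shorter pattern in its peak, beside 38.3% of such coding genes. At Ctc1 the pattern, at chr11:69015825-69015841, ended 70 bp before the start and lay 48 bp outside the TRF2 peak. No TTAGGG unit was present in the TRF2 peaks of the members called in either library.

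RefSeq promoter windows, from 250 bases before to 50 after the start, were available for 9 of the 10 genes, with 2 for Wrap53. The G-quadruplex pattern with the shorter limit was in those of Nhp2, Rtel1 and Ctc1, and with up to 12 bases also in those of Dkc1 and Ten1. Among 20150 coding promoters it was in 22.7% and 35.0%. A GC box was in the promoters of Tert, Nhp2, Rtel1, Ctc1 and Ten1, beside 47.8% of all promoters, and Nhp2 held 3. CACGTG, the E-box letters read by Myc and other factors, was in those of Wrap53, Ctc1 and Ten1, beside 8.03%, and in Ctc1 it overlaps the last base of the G-quadruplex pattern printed above. TTAGGG on either strand was in that of Wrap53 alone, beside 10.6%. GC content ran from 49.3% at Nop10 to 67.0% at Ten1, with a median of 57% over all promoters.

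Away from the starts the 10 genes held few peaks. A peak with its summit 2158 to 2161 bp before Nop10 was present in all 4 libraries, with ranks of 75.1 and 76.4 in Control and 70.1 and 74.9 in TRF2KO, and it lay 474 to 477 bp from the start of Nutm1. A peak with its summit 1791 to 1809 bp before Nhp2 had ranks of 69.4 and 68.6 in Control and 66.4 and 69.9 in TRF2KO, in intergenic sequence. An intron of Rtel1 carried a peak 14.5 kb inside the gene with ranks of 34.5 and 45.3 in Control and 48.1 and 38.8 in TRF2KO. These 3 elements were called in every ATAC-seq library. At the Nop10 element both Control ranks lay above both TRF2KO ranks, and at the other 2 the genotypes overlapped. For start peaks 28.4% of coding genes had Control above, and the share for peaks away from starts was not computed.

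The 3′ end of Ctc1 held the strongest of these peaks, with ranks of 80.0 and 80.5 in Control and 80.5 and 81.6 in TRF2KO. It was 811 and 906 bp wide in Control and 2487 and 2515 bp wide in TRF2KO. In both Control lists a second peak of 1354 and 1505 bp lay just beyond the gene, with ranks of 81.0 and 84.3, and in TRF2KO a single peak spanned both. The wider TRF2KO peak thus covered stretches that Control also had as peaks, and the lists do not show whether the gap between them opened. Weak peaks of single libraries lay in Wrap53 introns, with 2 in Control 2 and 1 in TRF2KO 2, and near 35 kb inside Rtel1 in each Control, where the peaks met only at their edges and had folds of 3.22 and 2.52. Counting every peak over 3 kb from its start, the genes had 3 and 4 in Control and 2 and 2 in TRF2KO, a difference of -1.5 (pooled SD 0.5, exact permutation p = 0.33, the smallest possible). With peaks of −log10 q of at least 5 or with GoPeaks regions the difference shrank to -0.5 (exact permutation p = 1 in each).

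The wider pathway was read from lists chosen with these data known. All 16 genes of telomerase biogenesis and regulation had a start peak in the 4 ATAC-seq libraries. Of these, 6 had both Control ranks above both TRF2KO ranks, 1 had the reverse and 9 overlapped, with a median difference of -0.57 points, and 4 had a TRF2 start peak in both libraries. The shares over all coding genes are 28.4%, 9.60% and 24.1% for Control above, the reverse and TRF2 in both libraries, with a median difference of -0.26. Ruvbl2, an ATPase that helps assemble telomerase, had ranks of 72.8 and 73.1 in Control and 57.2 and 44.6 in TRF2KO, a difference of -22.1 points. Coil, the coilin scaffold of Cajal bodies, had 45.3 and 50.6 in Control and 34.7 and 35.4 in TRF2KO. Pinx1, a telomerase inhibitor, had 80.6 and 82.3 against 80.4 and 76.4, and Parn, a nuclease that matures Terc, had 86.1 and 87.2 against 88.5 and 88.0. None of these 4 had a TRF2 start peak in both libraries.

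All 20 genes of telomere replication also had a start peak in the 4 ATAC-seq libraries. Of these, 5 had Control above, 1 the reverse and 14 overlapped, with a median difference of -0.27, and 6 had TRF2 in both libraries, beside 28.4%, 9.60% and 24.1% of coding genes. Exo1, the nuclease that resects 5′ ends, had ranks of 78.1 and 79.9 in Control and 67.5 and 72.3 in TRF2KO. Prim2, a primase subunit that acts with CST and polymerase alpha, had 81.0 and 84.1 against 76.6 and 78.0. Stn1, the CST subunit that joins Ctc1 and Ten1, had 96.4 and 96.4 against 96.0 and 96.1, a difference of -0.32, with a TRF2 peak of fold 6.12 in library 2 alone. All 3 CST genes ranked above 90 in every library.

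Of the 7 shelterin genes, 3 had Control above and 4 overlapped, with a median difference of -0.50, and 2 had TRF2 in both libraries, beside 28.4% of coding genes with Control above and 24.1% with TRF2 in both. Terf2, the deleted gene, had ranks of 90.1 and 91.5 in Control and 75.0 and 73.3 in TRF2KO, a difference of -16.6 points, and a TRF2 peak of fold 5.40 in library 1 alone. The sources used here do not say which part of the gene was deleted, so whether the start peak covers that part is not known. No other check of the deletion was made from the peak lists. Terf2ip, which encodes the TRF2 partner RAP1, had 89.5 and 90.05 against 88.8 and 89.2, and Terf1, which binds telomeric DNA as TRF2 does, had 96.7 and 96.8 against 95.8 and 96.3.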

How the data were processed

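ATAC-seq of 4 MuSC libraries (2 Control, 2 TRF2KO) and CUT&Tag of 3 (2 TRF2, 1 IgG) were read from the peak lists of each library. Per the study's methods, the authors trimmed CUT&Tag reads with cutadapt 4.4, aligned them to mm10 with Bowtie2, removed duplicates and kept uniquely aligned proper pairs, and called peaks with MACS, SEACR and GoPeaks. The submitters' processing notes name MACS3 3.0.0 and 3.0.2. The MACS settings, any Tn5 shift and the use of IgG as a control are not given in the sources used here. The deposited MACS lists give each peak's fold enrichment (a ratio to the background) and its p and q values as −log10, with one list for each library. The MACS score column and the consensus lists were not used. The methods also describe the CUT&Tag mice as reporter mice and give another time after injury and another catalogue entry for the TRF2 antibody than the labels, which were followed here.

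Peaks were ranked by fold within each list and joined to GENCODE M21 genes on chromosomes 1 to 19, X and Y with Python 3.11.15, pandas 2.3.3 and SciPy 1.17.1. A start window was 3 kb either side of the gene start and any overlap of 1 bp counted. The fragments at a summit were solved from the deposited fold and −log10 p, so they are estimates. Groups were compared by overlap of ranks and by exact two-sided permutation tests. Scripts were checked on simulated data. The members and lists were chosen with earlier results of these data known. All 10 members are named. Other pathway genes are named where the groups did not overlap and the difference was among the 3 largest of its list in its direction, or where they are Terf2 or Stn1, and genes sharing a start window are named, except for one item that is not reported here. The promoter of Terc was not analysed here.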

Additional observations from a re-analysis of the deposited data

How the results depend on the processing

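The count of 9 genes with an ATAC-seq start peak in all 4 libraries was within 1.5 times under every alternative run. These were a window of 1 kb, any annotated transcript start, −log10 q of at least 5, SEACR or GoPeaks regions, and each library left out. Leaving out a library could not lower the count and could raise it by Tert alone. Only SEACR changed the count, to 8, by calling a region at Terc in TRF2KO 2 alone. For genes with a TRF2 start peak in both libraries (3), a peak in either library gave 6, and leaving out 1 TRF2 library at a time gave 4 to 5, with 5 without TRF2 library 1. Of genes with both Control ranks above both TRF2KO ranks (1, Ctc1), centred log2 folds left 0, beside 22.2% of coding genes. With each ATAC-seq library left out in turn this count ran from 2 to 6, and that of genes with TRF2KO above (0) from 1 to 4, where the group of 1 library has no spread of its own. The counts were 3 and 1 without Control replicate 1, 2 and 1 without Control replicate 2, 2 and 4 without TRF2KO replicate 1, and 6 and 1 without TRF2KO replicate 2. In the same order the shares of coding genes were 65.8% and 12.5%, 32.5% and 42.3%, 43.8% and 17.5%, and 39.5% and 22.1%. The replicate block, which compares same-numbered libraries as pairs, gave 2 with Control above (Gar1 and Ctc1). Of coding genes 36.5% had Control above and 14.1% the reverse in that setting. Whether same-numbered libraries were prepared together is not stated in the sources used here. The deviations of same-numbered libraries correlated at -0.05 over coding genes. TRF2 peaks with a G-quadruplex pattern (0 of 3 genes) became 2 with up to 12 bases between runs and 1 with peaks of either library. Of 72 alternative values of single genes, 58 kept the sign of the difference, as did 34 of the 36 that used all libraries. Most of those 36 could not differ. The rank of −log10 q, the peak of highest fold within 3 kb and the replicate block repeated the main difference at every gene. Ranks among start peaks alone gave other values, and reversed the sign at Gar1 (0.08) and Wrap53 (0.77). Centred log2 folds, not among the 72, reversed it at Nhp2 (0.01), Gar1 (0.02) and Wrap53 (0.07). TRF2 peaks at these genes rested on 6 to 16 fragments, which limits calls made in a single list.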
